A study of Homo sapiens with 9 samples.

Results

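Silencing of the exon 11a isoform of hMENA was set directly against silencing of all hMENA transcripts in H1650 cells, a human line that was established from a lung cancer of the non-small cell type. The comparison takes the 3 siMENA11a libraries against the 3 siMENA libraries and covers every gene of the table that could be tested. Of 16630 genes, 13273 had a value in all 9 libraries and a mean of at least 0.5 FPKM (fragments scaled to transcript length and to the mapped fragments of the library). The siMENA cells received a commercial pool of siRNAs against ENAH, the gene of hMENA, which was designed against all of its transcripts. The siMENA11a cells received a mix of 3 siRNAs that each match 21 nucleotides of exon 11a. Another group of 3 libraries, from cells given a nontargeting siRNA pool, served as a reference for the level of each gene. All cells were transfected with the same lipid reagent at 20 nM and collected on day 3, and RNA was depleted of ribosomal RNA and sequenced by strand. Each target was silenced with 1 siRNA preparation in 1 cell line, so what belongs to the target and what belongs to the siRNAs of a preparation cannot be told apart.

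hMENA belongs to the Ena/VASP proteins, which sit at the growing ends of actin filaments, bring in actin bound to profilin and hold off the capping proteins that would stop growth. Splicing of ENAH gives isoforms with different behavior. Exon 11a is included in epithelial cells, where the ESRP splicing factors promote it, and the isoform that carries it is tied to cell junctions and an epithelial shape. An siRNA acts on a transcript that matches its whole guide strand, and a guide strand can also repress other transcripts that pair with its seed, a stretch of bases near its 5′ end. No siRNA sequence was used here.

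The stretch of exon 11a shown next holds the 7-base word that was found most often in the 3′ untranslated regions of the genes at least 2-fold lower with siMENA11a, and the sites are its first occurrences in 7 of those genes. Each is written 5′ to 3′ on the strand of its gene, with the word in capitals, and positions are on GRCh38 from GENCODE 29.
ENAH exon 11a, chr1:225505024-225505053, minus strand: acgggattctCCAAGGAaaaatcagattgt
LANCL1, chr2:210434391-210434417, minus strand: ccgttgctttCCAAGGAaacaaagagt
EFTUD2, chr17:44851040-44851066, minus strand: ggctccattcCCAAGGAaaagagagga
LIMK1, chr7:74122460-74122486, plus strand: accgtgacgtCCAAGGAaccaaaccca
PABPC4, chr1:39561027-39561053, minus strand: gacctcaacaCCAAGGAttacaaattg
MYL9, chr20:36549462-36549488, plus strand: tctgacccctCCAAGGAaagaccacct
COL5A2, chr2:189033185-189033211, minus strand: aaacatatgtCCAAGGActctaaattg
PLA2G15, chr16:68260440-68260466, plus strand: gactgtggttCCAAGGAtgagagcagg
The exon is 63 bases long, at chr1:225504991-225505053, and occurs in 2 of 9 ENAH transcripts of the annotation. The word starts at base 11 of the exon.

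The 9 libraries had similar FPKM sums, from 558754 to 592930, and their 20 most abundant genes took 19.7% to 23.9% of the sum. Part of the deposited values had lost their decimal point and were restored by division by 1000, which was 7.91% of the values present. The epithelial markers EPCAM, CDH1, KRT7, KRT8, KRT18, KRT19, ELF3 and CLDN4 were high in every library, with lowest values from 67.6 FPKM for ELF3 to 1111 FPKM for KRT8. The surface mucin MUC1 was lower, with a lowest value of 5.48 FPKM, and NKX2-1 was not analysed here. The summed level of the epithelial markers was 5022 to 5271 FPKM with siMENA and 4324 to 4866 FPKM with siMENA11a, without overlap, and 5116 to 5480 FPKM in control. KRT8, KRT18 and KRT19 make up most of this sum. Their means and that of CDH1 were lower with siMENA11a, and those of EPCAM, KRT7, MUC1, ELF3 and CLDN4 were higher. The median log2 difference of the 9 markers, siMENA11a minus siMENA, was 0.132. Of these 9, 1 (11.1%) was called higher and 3 (33.3%) lower, beside 14.4% and 22.2% of all genes tested. Most markers of fibroblasts, leukocytes and endothelial cells stayed at or under 1.32 FPKM in every library, and the exceptions were FBLN1, FAP, COL3A1, CD14, CD68 and EGFL7. The summed level of the markers of these other cell types ran from 68.8 to 91.2 FPKM with siMENA and from 62.9 to 84.3 FPKM with siMENA11a for fibroblasts, from 13.7 to 16.7 and from 15.1 to 20.2 FPKM for leukocytes, and from 37.5 to 43.8 and from 34.1 to 39.3 FPKM for endothelium. Only 3 fibroblast, 2 leukocyte and 2 endothelial markers could be tested. Among those tested, FAP and TEK were called higher with siMENA11a and none lower, beside 14.4% higher and 22.2% lower of all genes tested. The median absolute log2 difference between 2 libraries over all genes tested was 0.086 to 0.148 within a group and 0.196 to 0.225 between a siMENA and a siMENA11a library. It was 0.145 to 0.180 between control and siMENA and 0.143 to 0.190 between control and siMENA11a libraries, with 9 pairs in each class. The siRNA groups thus lay farther from each other than either lay from control.

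ENAH was the target of both preparations and was less reduced by the exon 11a siRNAs. It measured 4.43, 5.79 and 5.57 FPKM in the siMENA libraries and 9.98, 11.02 and 10.3 FPKM in the siMENA11a libraries, against 27.4 ± 2.3 FPKM in control (mean ± SD, n = 3). Every siMENA11a library lay above every siMENA library and below every control library. The group means were 19.2% and 38.1% of control, and the difference between the siRNA groups was 0.87 on the log2 scale (SE 0.09, limma adjusted p 0.000112). With 20 ways to split the 6 FPKM values, an exact permutation test, two-sided, could go no lower than p = 0.1, and that was its result. A gene-level value adds up transcripts with and without exon 11a, so the level of the 11a isoform itself was not measured.

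Of the 13273 genes tested, 4857 differed between the siRNA groups at a limma adjusted p under 0.05, which is 36.6%. 1916 genes, 14.4% of those tested, were higher with siMENA11a and 2941, or 22.2%, were lower. Higher genes made up 39.4% of these calls, and they made up 49.9% when libraries were scaled to a common median ratio (2307 higher and 2316 lower) and 49.1% after quantile normalization (2283 and 2365). Most differences were small: 74.2% of the calls were under 0.5 on the log2 scale, and the median size of a call was 0.369. Differences of at least 2-fold, that is of 1 or more on the log2 scale, were found in 89 genes, of which 43 were higher and 46 lower with siMENA11a, and in 243 genes with a pseudocount of 0.1 FPKM in place of 1. The median over all genes tested was -0.045. Differences are given throughout as siMENA11a minus siMENA on the scale log2(FPKM + 1), which makes the change of weakly expressed genes look smaller than it was. Each group has 3 libraries.

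**Figure D1:**
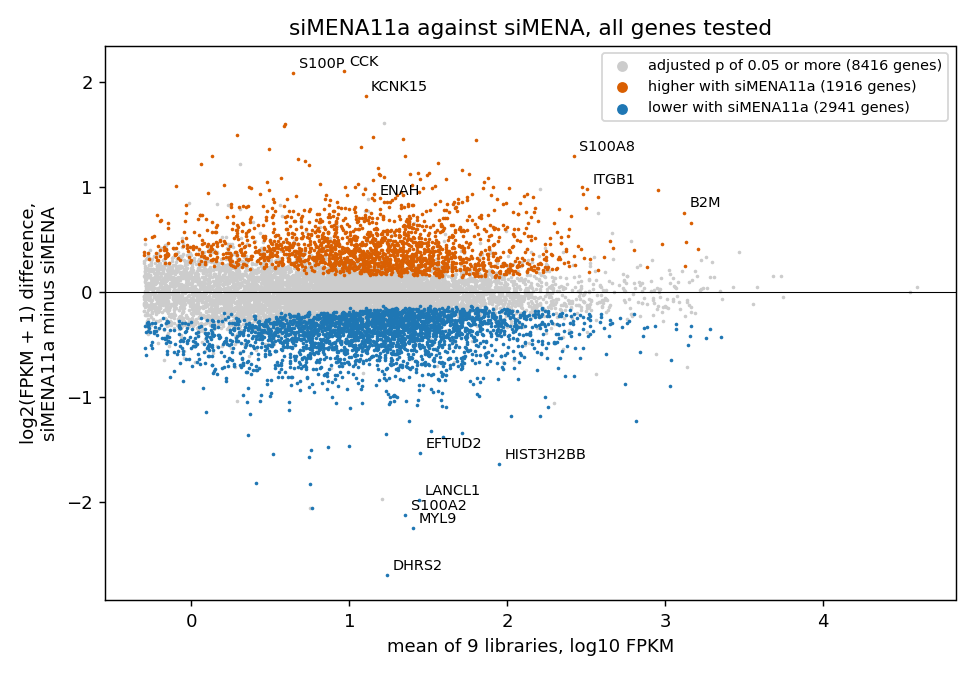
Difference between siMENA11a and siMENA (log2(FPKM + 1), vertical axis) against the mean level over the 9 libraries (log10 FPKM, horizontal axis) for the 13273 genes tested. Orange points are the 1916 genes higher with siMENA11a, blue points the 2941 lower, and gray points did not pass an adjusted p of 0.05. The highest difference is 2.10 (CCK) and the lowest -2.70 (DHRS2).

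The control libraries give a reference level for both siRNA groups. Control means lay between the means of the siRNA groups for 1342 of the 1916 higher genes and 2272 of the 2941 lower genes. They were nearer to siMENA11a for 1015 of the higher genes and nearer to siMENA for 1542 (52.4%) of the lower genes, close to an even split. Among the 43 genes at least 2-fold higher, the control mean lay between the 2 groups in 39 and was nearer to siMENA11a in 27. Among the 46 genes at least 2-fold lower, it lay between in 40 and was nearer to siMENA in 31. These positions are descriptions, since the same siRNA libraries set both the difference and the position of control.

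The gene most raised with siMENA11a relative to siMENA was CCK, which encodes the peptide hormone cholecystokinin. CCK measured 1.30, 4.31 and 2.81 FPKM in the siMENA libraries and 14.8, 17.4 and 11.6 FPKM in the siMENA11a libraries (log2 difference 2.10, SE 0.26, limma adjusted p 0.000271). S100P, a small calcium sensor made by many carcinomas, went from 1.86, 0.758 and 1.76 FPKM to 11.9, 7.06 and 9.11 FPKM (log2 difference 2.08, SE 0.20, limma adjusted p 6.23e-05). In both genes the groups were well apart, but control differed: it was 10.2 ± 1.7 FPKM for CCK, nearer to the siMENA11a libraries, and 2.45 ± 0.066 FPKM for S100P, nearer to the siMENA libraries. KCNK15, a two-pore potassium channel, held 5.74, 5.94 and 5.63 FPKM with siMENA and 22.3, 25.99 and 22.6 FPKM with siMENA11a (log2 difference 1.86, SE 0.07, limma adjusted p 2.16e-06), around a control level of 8.67 ± 0.57 FPKM. The bile salt exporter ABCB11 (1.55, 1.38 and 2.20 against 7.98, 5.16 and 8.83 FPKM, log2 difference 1.60, SE 0.19, limma adjusted p 0.000196) and the syntenin relative SDCBP2 (1.77, 1.83 and 1.496 against 6.79, 8.18 and 6.29 FPKM, log2 difference 1.58, SE 0.11, limma adjusted p 1.58e-05) also had controls nearer to siMENA. The siRNA groups were separate in these 5 genes by the rule that picked the 15 largest rises and 15 largest falls. Separate groups were found in 47.8% of all genes tested and in 4755 of the 4857 calls. Here and below, separation thus adds little to a call.

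For DNER, FEZ2 and FAM96A the siMENA libraries again lay below every control library, as they did for CCK, S100P, KCNK15 and SDCBP2. DNER, a transmembrane ligand of Notch, measured 4.63, 6.40 and 7.05 FPKM with siMENA, 17.3, 21.2 and 16.6 FPKM with siMENA11a and 17.9 ± 1.5 FPKM in control (log2 difference 1.47, SE 0.13, limma adjusted p 4.96e-05). FEZ2, a relative of a kinesin cargo adaptor, measured 9.83, 10.3 and 11.9 FPKM with siMENA and 31.1, 29.7 and 32.2 FPKM with siMENA11a with a control mean of 23.9 ± 0.27 FPKM (log2 difference 1.46, SE 0.07, limma adjusted p 2.16e-06). FAM96A, a factor of cytosolic iron-sulfur protein assembly, held 28.6, 31.8 and 34.8 and 85.9, 83.1 and 95.7 FPKM, with 71.2 ± 1.9 FPKM in control (log2 difference 1.45, SE 0.08, limma adjusted p 3.22e-06). The siMENA libraries were the low ones in all 3 genes. The siMENA11a libraries lay around control for DNER and above every control library for FEZ2 and FAM96A. S100A8, a calcium-binding alarmin of epithelial and myeloid cells, was the most abundant of the 15 largest rises, at 101, 141 and 137 FPKM with siMENA and 335, 255 and 344 FPKM with siMENA11a (log2 difference 1.29, SE 0.14, limma adjusted p 0.000111). Its control level was 356 ± 5.8 FPKM, and 8 of its 9 values carry the decimal repair. Among genes named below, so do 8 values of ITGB1, RHOA, CFL1, PSMA3 and TNFRSF12A. All 9 values were repaired for DSTN, MYL12A, KRT7, CANX, CALR, CYC1, PSMB3, SNRPB and PRKAR1A. The remaining large rises went with a high siMENA11a level or with low expression: SLC7A11, the cystine importer, at 7.08, 6.75 and 6.39 against 14.6, 28.5 and 16.9 FPKM (log2 difference 1.38, SE 0.20, limma adjusted p 0.000701), the deubiquitinase UCHL1 at 1.26, 2.31 and 1.34 against 4.48, 8.51 and 4.64 FPKM (log2 difference 1.36, SE 0.21, limma adjusted p 0.000912) and BIRC3, a ubiquitin ligase that blocks apoptosis, at 3.17, 3.02 and 2.74 against 8.19, 10.2 and 7.43 FPKM (log2 difference 1.26, SE 0.11, limma adjusted p 3.89e-05). The siMENA11a libraries stood above both other groups in these 3 genes, whose control means were 8.70 ± 1.57, 1.76 ± 0.14 and 2.70 ± 0.30 FPKM. The aldo-keto reductase AKR1C3 (1.29), the metallothionein MT1E (1.29) and the receptor pseudogene OR7E91P (1.496) complete the 15, and their values are uncertain because close paralogs share their sequence.

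The largest fall was in DHRS2, a short-chain dehydrogenase of mitochondria and nucleus. DHRS2 measured 43.7, 49.1 and 30.9 FPKM in the siMENA libraries and 5.57, 5.52 and 5.07 FPKM in the siMENA11a libraries (log2 difference -2.70, SE 0.15, limma adjusted p 4.48e-06). With 5.29 ± 0.89 FPKM in control, the siMENA libraries were the ones that stood out. CGA, the alpha chain common to the glycoprotein hormones, had the same shape, with 15.1, 11.4 and 12.1 FPKM against 2.68, 1.71 and 2.59 FPKM and a control mean of 2.22 ± 1.08 FPKM (log2 difference -2.06, SE 0.23, limma adjusted p 0.00013). So did PADI3, a peptidylarginine deiminase of hair and skin, with 11.02, 10.7 and 9.93 against 2.77, 2.54 and 3.33 FPKM and 3.23 ± 0.20 FPKM in control (log2 difference -1.58, SE 0.09, limma adjusted p 4.02e-06). The membrane-anchored semaphorin SEMA7A measured 11.1, 9.07 and 9.24 against 2.85, 3.16 and 2.39 FPKM (log2 difference -1.51, SE 0.10, limma adjusted p 9.5e-06), and its control level of 4.49 ± 0.23 FPKM lay between the groups, above every siMENA11a library. MYL9, a regulatory light chain of non-muscle and smooth muscle myosin, had control between the siRNA groups: 33.3, 53.6 and 31.7 FPKM with siMENA, 6.47, 15.2 and 3.68 FPKM with siMENA11a and 27.98 ± 13.46 FPKM in control (log2 difference -2.25, SE 0.45, limma adjusted p 0.00365). Its groups did not overlap, but its replicates varied more than those of the other large falls, and replicate 2 was the highest library of both siRNA groups. S100A2, a calcium-binding protein of basal epithelium, measured 41.4, 54.6 and 26.8 FPKM against 6.57, 10.9 and 7.69 FPKM (log2 difference -2.13, SE 0.31, limma adjusted p 0.000681), around 18.5 ± 8.4 FPKM in control. COL5A2, a chain of fibrillar collagen V, was low throughout, at 6.97, 4.83 and 5.99 against 1.60, 0.941 and 1.57 FPKM (log2 difference -1.55, SE 0.15, limma adjusted p 5.79e-05). Its control level was 2.55 ± 0.37 FPKM.

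For LANCL1, EFTUD2, PABPC4, GATSL3 and PLA2G15 the siMENA11a libraries also lay below every control library, as they did for SEMA7A, S100A2 and COL5A2. LANCL1, a glutathione-binding protein, measured 38.1, 35.8 and 42.7 FPKM with siMENA, 35.2 ± 2.3 FPKM in control and 10.5, 6.25 and 11.2 FPKM with siMENA11a (log2 difference -1.98, SE 0.17, limma adjusted p 3.34e-05). EFTUD2, the GTPase of the U5 spliceosome particle, measured 38.4, 39.1 and 38.4 FPKM with siMENA and 13.5, 11.6 and 12.9 FPKM with siMENA11a (log2 difference -1.54, SE 0.06, limma adjusted p 2.16e-06), against 32.7 ± 1.9 FPKM in control. Both differences were many times the spread between replicates, and no siMENA11a library came near the lowest siMENA value. PABPC4, a cytoplasmic poly(A)-binding protein, held 53.3, 52.2 and 60.6 and 20.3, 20.01 and 21.3 FPKM (log2 difference -1.39, SE 0.07, limma adjusted p 3.22e-06), GATSL3, a sensor of arginine for mTORC1 signaling, 11.5, 8.42 and 9.58 and 2.92, 2.02 and 3.85 FPKM (log2 difference -1.48, SE 0.17, limma adjusted p 0.000161), and PLA2G15, a lysosomal phospholipase, 14.1, 15.6 and 13.97 and 5.27, 3.998 and 4.58 FPKM (log2 difference -1.48, SE 0.09, limma adjusted p 6.13e-06). In these 3 genes, too, the siRNA groups were clearly separate. Their control levels were 40.9 ± 3.05, 9.31 ± 1.22 and 10.7 ± 0.63 FPKM. The siMENA libraries lay around control for GATSL3, in part above it for LANCL1, and above every control library for EFTUD2, PABPC4 and PLA2G15. The histone genes HIST1H2BA (-1.84), HIST1H2AA (-1.82) and HIST3H2BB (-1.64) were also among the 15 largest falls. HIST3H2BB was the most abundant of them, at 139 ± 15 FPKM with siMENA and 44.1 ± 9.2 FPKM with siMENA11a, and the values of all 3 are uncertain because histone genes share sequence.

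**Figure D2:**
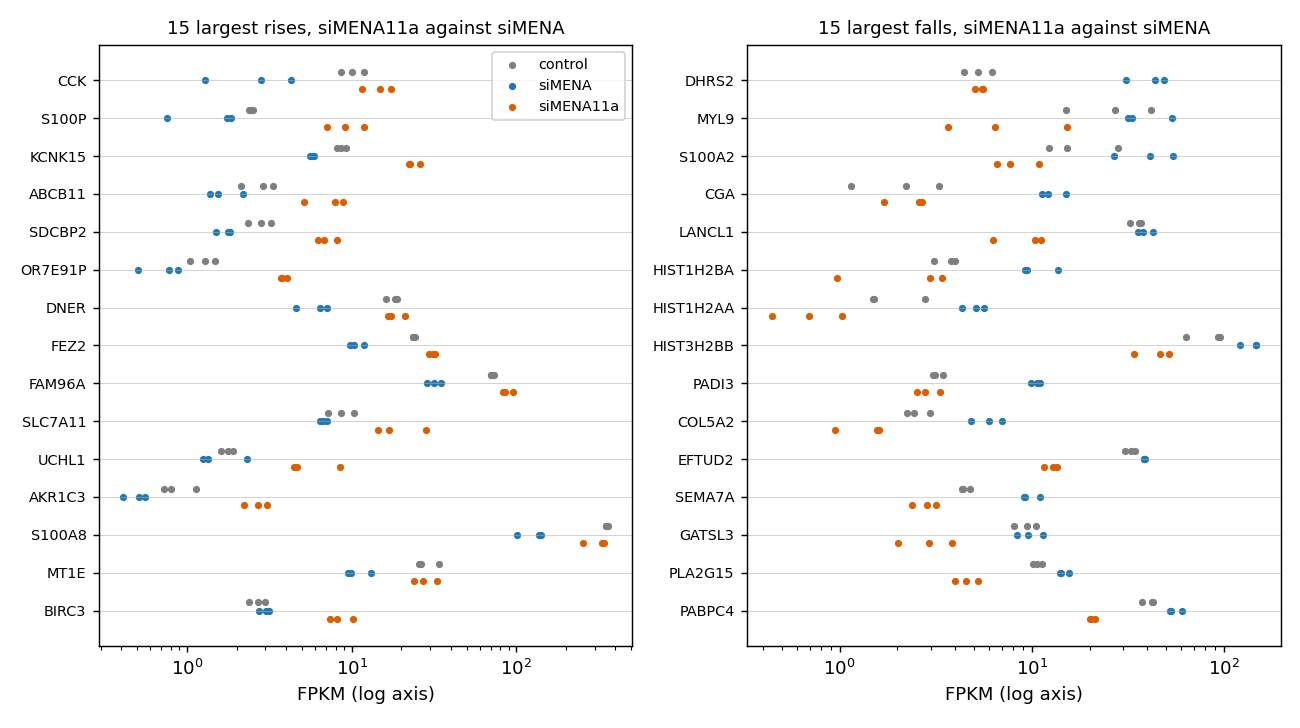
FPKM (log axis) of the 15 genes with the largest rise (left) and the 15 with the largest fall (right) in siMENA11a against siMENA, 1 point per library, with control in gray, siMENA in blue and siMENA11a in orange. Blue and orange points do not overlap in any of the 30 genes, which was a condition of their choice. Control lies beside siMENA for LANCL1 and GATSL3, beside siMENA11a for DHRS2, CGA and PADI3, and between the siRNA groups for PABPC4 and SEMA7A.

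The word CCAAGGA of exon 11a was frequent in the 3′ untranslated regions of the genes that fell most. Of the 46 genes at least 2-fold lower with siMENA11a, 40 had an annotated 3′ untranslated region to search, and 24 of these (60.0%) carried the word. It was found in 15.1% of all 11360 genes searched and in 4 of 40 (10.0%) genes at least 2-fold higher. LANCL1 and PLA2G15 carry it at 2 places and SUMF1, which activates sulfatases, at 3. Of the 15 largest falls, DHRS2, S100A2, CGA, HIST3H2BB, PADI3 and SEMA7A do not carry it, and HIST1H2BA, HIST1H2AA and GATSL3 were not searched. The word was chosen as the one with the most carriers among the 57 words of 7 bases in exon 11a, in the same genes, so its high share is built into the choice and supports nothing by itself. The neighboring word CAAGGAA came next, with 22 of 40 (55%).

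Over all calls the difference was smaller. CCAAGGA was present in 19.8% of the searched genes called lower, in 12.2% of those called higher and in 14% of those that did not pass. Long untranslated regions hold more words, and genes called higher had longer ones, with a median of 1876 bases against 1109 for genes called lower. Within 4 classes of length, from the shortest to the longest, 43.2%, 34.3%, 35.9% and 25.4% of carriers were called lower, against 28.4%, 23.8%, 19.9% and 13.9% of genes without the word. The share was thus higher in carriers within every class. The genes from which the word was chosen are counted in these shares, and no other word was set in the same classes. Only the sense strand of the longest annotated region per gene was searched, a match is not a measured site, and the part of this word in any difference was not tested.

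**Figure D3:**
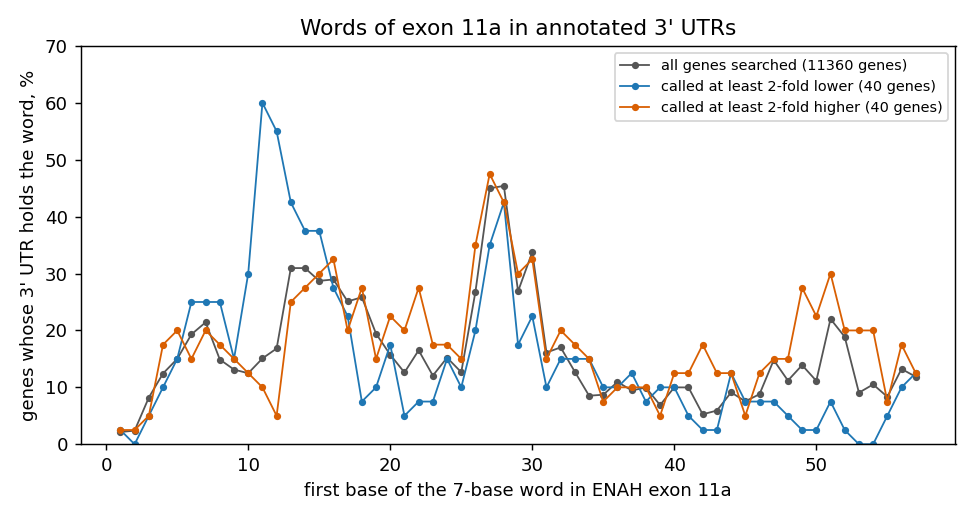
Share of genes (%, vertical axis) whose annotated 3′ untranslated region holds each 7-base word of ENAH exon 11a, by the word's first base in the exon (horizontal axis). Gray is all 11360 genes searched, blue the 40 genes at least 2-fold lower and orange the 40 at least 2-fold higher with siMENA11a. Blue reaches 60.0% at base 11 and 55% at base 12, where gray is 15.1% and 16.8%.

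Among actin regulators, the LIM kinase LIMK1 stood out. It phosphorylates and so inactivates the filament-severing protein cofilin, and it measured 21.4, 22.9 and 24.2 FPKM with siMENA and 8.77, 8.39 and 7.67 FPKM with siMENA11a (log2 difference -1.36, SE 0.07, limma adjusted p 3.22e-06), with 20.3 ± 1.3 FPKM in control. Cofilin itself, CFL1, was also lower (-0.42, limma adjusted p 0.00158), as was the GTPase RHOA, from 286, 275 and 268 to 167, 138 and 169 FPKM (log2 difference -0.81, SE 0.08, limma adjusted p 6.47e-05). Destrin, DSTN, a second severing protein, was higher, at 180.4, 189 and 187 against 272, 266 and 267 FPKM (log2 difference 0.53, SE 0.06, limma adjusted p 0.000177). For DSTN control was at 276 ± 19 FPKM, on the side of siMENA11a. None of these 4 genes had overlapping groups. In the LIM kinase and cofilin list 5 of 23 tested members (21.7%) were higher with siMENA11a and 4 (17.4%) lower, a count of lower genes that was 8 without siMENA11a replicate 2. Shares in brackets are read beside the 14.4% higher and 22.2% lower of all genes tested, and shares close to those, as in this list, are no result about the list. Counts of 3 or fewer genes are small, and several of them moved by 1 gene when a library was left out. The list's median was -0.021 and turned positive under both other scalings (0.025 and 0.01).

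In the list of Ena/VASP proteins and their partners 3 of 21 tested members (14.3%) were higher with siMENA11a and 7 (33.3%) lower, at a median of -0.17 against -0.045 for all genes. The count of lower genes fell to 3 without siMENA replicate 2 or siMENA11a replicate 3. Besides ENAH itself, LPP, an adaptor of focal adhesions that binds Ena/VASP proteins, was higher, at 4.75, 5.11 and 6.07 against 7.80, 9.58 and 9.65 FPKM (log2 difference 0.67, SE 0.10, limma adjusted p 0.000966). EVL, another Ena/VASP paralog, was lower at 5.03, 3.95 and 5.09 against 2.66, 2.58 and 3.40 FPKM (log2 difference -0.55, SE 0.11, limma adjusted p 0.00314), as was the kinase ABL1 (-0.51, limma adjusted p 0.00846). The siRNA groups did not overlap in any of the 3. The paralog VASP measured 81.4, 82.4 and 89.7 and 84.3, 71.9 and 69.3 FPKM and did not pass (log2 difference -0.17, SE 0.07, limma adjusted p 0.1), a gene named here after its value was seen. Of the Arp2/3, WAVE, formin and capping genes, which start, extend and cap filaments, 3 of 30 tested members (10%) were higher with siMENA11a and 11 (36.7%) lower. Without siMENA replicate 1 there were 7 lower genes, and the higher genes were 5 with median-ratio scaling and 6 with quantile normalization. The capping protein subunit CAPZA1 (-0.64, limma adjusted p 0.000233) and the formins FMNL1 (-0.48, 0.00566) and DIAPH1 (-0.46, 0.0155) were lower, and twinfilin, TWF1, was higher (0.43, 0.00054). DIAPH1 lost its call without siMENA replicate 3, siMENA11a replicate 1 or siMENA11a replicate 3 (limma adjusted p 0.0535 to 0.0542, and 0.00631 to 0.0542 over all alternatives).

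Single contractile genes differed in both directions. MYL12A, a second regulatory light chain of non-muscle myosin, was higher with siMENA11a, at 106, 104 and 106 against 184, 171 and 182 FPKM (log2 difference 0.76, SE 0.05, limma adjusted p 1.12e-05), the reverse of MYL9. The tropomyosin TPM1 was higher as well, at 76.8, 76.2 and 72.1 against 122, 123 and 133 FPKM (log2 difference 0.74, SE 0.06, limma adjusted p 2.65e-05), while calponin 2, CNN2, was lower (-0.63, limma adjusted p 0.00058). Replicates of these 3 genes were close to each other and the siRNA groups were apart. The control mean lay between the siRNA means for MYL12A (158 ± 4.6 FPKM) and CNN2 (46.6 ± 1.8 FPKM). For TPM1 it lay above both, at 147 ± 7.7 FPKM. In the list as a whole 2 of 21 tested members (9.52%) were higher with siMENA11a and 8 (38.1%) lower. The count of lower genes was 4 or 5 without any one of siMENA replicates 1, 2 and 3 and siMENA11a replicates 1 and 3, 5 in a fit of the siRNA libraries alone, 4 with median-ratio scaling and 5 with quantile normalization, and the list median of -0.070 was close to that of all genes.

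Integrins, the receptors that tie the actin skeleton to the matrix, were higher with siMENA11a in 7 of 14 tested subunits (50%, where 14.4% of all genes were higher), and 1 was lower. ITGB1, the partner of most alpha subunits, measured 172, 197 and 189.7 FPKM with siMENA and 344, 387 and 371 FPKM with siMENA11a (log2 difference 0.98, SE 0.08, limma adjusted p 2.65e-05). ITGAV measured 46.1, 48.6 and 48.1 against 77.3, 85.6 and 76.2 FPKM (log2 difference 0.73, SE 0.06, limma adjusted p 3.61e-05), and ITGB8, one of its partners, 27.9, 30.1 and 35.7 against 58.1, 50.5 and 63.6 FPKM (log2 difference 0.86, SE 0.10, limma adjusted p 0.000163). ITGB6, the partner of ITGAV that is typical of epithelium, measured 7.24, 7.71 and 8.40 against 16.4, 14.2 and 19.3 FPKM (log2 difference 1.00, SE 0.13, limma adjusted p 0.000395). The siMENA11a libraries were the higher ones in each of the 4, without overlap. For ITGB1, ITGB8 and ITGAV control stood at 412 ± 28, 66.7 ± 0.77 and 76.8 ± 4.4 FPKM, on the side of siMENA11a, and for ITGB6 at 8.27 ± 1.502 FPKM, on the side of siMENA. The subunit that went the other way was ITGB5, chosen here after its value was seen, with 42.2, 41.4 and 40.5 against 25.8, 27.1 and 25.9 FPKM (log2 difference -0.64, SE 0.05, limma adjusted p 1.58e-05). The list's median was 0.29.

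Of the laminin, collagen and matrix genes 4 of 21 tested members (19%) were higher with siMENA11a and 3 (14.3%) lower: beside COL5A2, the basement membrane collagens COL4A1 (-0.55, limma adjusted p 0.0228) and COL4A2 (-0.49, 0.0314) were lower and the laminin chain LAMB3 was higher (0.52, 0.0265). The lower genes were 1 without siMENA replicate 1, siMENA replicate 2, siMENA11a replicate 1 or siMENA11a replicate 3. COL4A1 lost its call without siMENA replicate 1, siMENA replicate 2, siMENA11a replicate 1 or siMENA11a replicate 3 (limma adjusted p 0.0636 to 0.078, and 0.00159 to 0.078 over all alternatives). COL4A2 lost its call without siMENA replicate 1, siMENA replicate 2, siMENA replicate 3, siMENA11a replicate 1 or siMENA11a replicate 3 (limma adjusted p 0.0705 to 0.105, and 0.000991 to 0.105 over all alternatives). LAMB3 lost its call without siMENA replicate 1, and in a fit of the 6 siRNA libraries alone (limma adjusted p 0.0514 to 0.0932, and 0.0102 to 0.0932 over all alternatives). Among epithelial adhesion and junction genes 1 of 29 tested members (3.45%) was higher with siMENA11a and 6 (20.7%) lower, with 3 lower genes without siMENA replicate 1, and with 6 higher and 3 lower under median-ratio scaling or 6 and 4 under quantile normalization. The higher genes were 3 without siMENA replicate 3, 4 without siMENA11a replicate 2 and 2 without siMENA11a replicate 3. E-cadherin, CDH1, the core of adherens junctions, measured 272, 261 and 286 FPKM with siMENA and 199.5, 179.6 and 191 FPKM with siMENA11a (log2 difference -0.52, SE 0.06, limma adjusted p 0.000217). Cingulin, CGN, of tight junctions measured 23.99, 22.98 and 22.3 against 13.8, 14.2 and 12.4 FPKM (log2 difference -0.74, SE 0.06, limma adjusted p 3.75e-05), and F11R, a junctional adhesion molecule, was lower by a smaller step (-0.33, limma adjusted p 0.00228). ESRP1, the splicing factor that promotes exon 11a, was higher, at 32.3, 31.97 and 36.7 against 41.8, 42.6 and 41.6 FPKM (log2 difference 0.31, SE 0.06, limma adjusted p 0.00331). Its control level of 45.2 ± 1.95 FPKM lay above both siRNA groups, so ESRP1 was lowest with siMENA and not raised over control with siMENA11a. The siRNA groups were separate in all 4 genes.

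In the mesenchymal transition list 1 of 13 tested members (7.69%) was higher with siMENA11a and 2 (15.4%) lower. The TGF-beta receptor TGFBR2 measured 71.8, 79.6 and 83.6 FPKM with siMENA and 42.6, 40.5 and 44.6 FPKM with siMENA11a (log2 difference -0.86, SE 0.07, limma adjusted p 3.03e-05), its ligand TGFB2 was higher with siMENA11a (0.52, limma adjusted p 0.00216), and the calcium-binding S100A4 was lower (-0.51, 0.00503). Of the keratins 1 of 11 tested members (9.09%) was higher with siMENA11a and 3 (27.3%) lower (3 and 3 under median-ratio scaling), with 0 lower without siMENA replicate 1 and 1 without siMENA replicate 2. KRT7 was higher at 359.7, 363 and 354 against 499, 551 and 460.3 FPKM (log2 difference 0.48, SE 0.08, limma adjusted p 0.00102), and the pair KRT8 (-0.33, limma adjusted p 0.0202) and KRT18 (-0.31, 0.0168), which form the filaments of simple epithelium, was lower. The keratin KRT17 of basal epithelium had overlapping groups, 2.30, 4.15 and 1.88 against 0.894, 2.04 and 0.882 FPKM (log2 difference -0.72, SE 0.24, limma adjusted p 0.0378). KRT8 lost its call without siMENA replicate 1 or siMENA replicate 2 (limma adjusted p 0.0633 to 0.0719, and 0.00818 to 0.0719 over all alternatives). KRT18 lost its call without siMENA replicate 1 (limma adjusted p 0.0528, and 0.0071 to 0.0528 over all alternatives). KRT17 lost its call without siMENA replicate 1, siMENA replicate 2, siMENA11a replicate 1 or siMENA11a replicate 3, and with no filter on low values or in a fit of the 6 siRNA libraries alone (limma adjusted p 0.0511 to 0.124, and 0.0016 to 0.124 over all alternatives). In the S100 family 4 of 15 tested members (26.7%) were higher with siMENA11a and 5 (33.3%) lower, with the largest members in both directions, S100P and S100A8 up and S100A2 down. The tested members include S100PBP, a protein that binds S100P and is not of the family. The lower genes were 3 without siMENA replicate 1, siMENA replicate 2 or siMENA11a replicate 3. S100A12 lost its call without siMENA replicate 1 or siMENA11a replicate 3 (limma adjusted p 0.064 to 0.0665, and 0.00323 to 0.0665 over all alternatives). Its difference was -0.61 (limma adjusted p 0.019). Of the YAP, TAZ and TEAD genes 3 of 22 tested members (13.6%) were higher with siMENA11a and 2 (9.09%) lower: the coactivator TAZ, WWTR1, was higher (0.60, limma adjusted p 0.000356), and the factor TEAD4 (-0.45, 0.00615) and the ecto-nucleotidase NT5E (-0.82, 0.000208) were lower.

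Cholesterol synthesis was the list with the highest share of lower genes. 18 of 24 tested genes (75.0%) were lower with siMENA11a and none was higher, where 22.2% of all genes were lower, and the list's median was -0.40. MVD, which makes isopentenyl diphosphate in the mevalonate pathway, measured 46.01, 38.5 and 41.7 FPKM with siMENA and 21.01, 20.7 and 21.6 FPKM with siMENA11a (log2 difference -0.96, SE 0.07, limma adjusted p 1.31e-05). ACAT2, which condenses acetyl-CoA at the start of the pathway, held 48.5, 41.7 and 42.1 against 23.3, 23.2 and 26.4 FPKM (log2 difference -0.83, SE 0.07, limma adjusted p 4e-05), the lanosterol synthase LSS 27.4, 23.8 and 25.5 against 16.9, 15.3 and 13.6 FPKM (log2 difference -0.71, SE 0.08, limma adjusted p 0.000137) and DHCR7, which makes cholesterol in the last step, 54.5, 49.5 and 52.5 against 31.5, 28.8 and 33.3 FPKM (log2 difference -0.72, SE 0.07, limma adjusted p 5.63e-05). None of the 4 overlapped between groups, and the control means of 37.8 ± 1.2, 40.2 ± 1.3, 22.05 ± 0.55 and 46.3 ± 2.7 FPKM lay between. Counts of lower genes stayed between 16 and 18 under the other scalings. In each library, the median deviation of the members from their own mean was 0.13, 0.10 and 0.11 in control, 0.21, 0.12 and 0.15 with siMENA and -0.24, -0.46 and -0.24 with siMENA11a, so the siMENA11a libraries were the low ones. Of the fatty acid synthesis genes 1 of 16 tested members (6.25%) was higher with siMENA11a and 5 (31.2%) lower, or 3 lower without siMENA replicate 1 or siMENA11a replicate 3. The desaturases FADS1, from 36.02, 37.8 and 34.8 to 20.2, 23.04 and 23.1 FPKM, and FADS2, from 49.7, 54.5 and 54.9 to 33.8, 34.4 and 31.2 FPKM, were lower (-0.69 and -0.66, limma adjusted p 4.36e-05 and 4.74e-05). ACLY, which makes cytosolic acetyl-CoA, was lower too (-0.55, 7.03e-05), and the malic enzyme ME1 higher (0.39, 0.0319). ME1 lost its call without siMENA replicate 2 or siMENA11a replicate 2, and in a fit of the 6 siRNA libraries alone (limma adjusted p 0.0604 to 0.113, and 0.0186 to 0.113 over all alternatives).

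Nuclear genes for mitochondria were lower in their majority. Of the respiratory chain subunits, 28 of 40 (70%) were lower with siMENA11a and 1 was higher, at a median of -0.31. Of the mitochondrial ribosomal proteins, 25 of 35 (71.4%) were lower and 1 was higher, at a median of -0.31. CYC1, cytochrome c1 of complex III, measured 267, 252 and 253 FPKM with siMENA and 177, 163 and 182 FPKM with siMENA11a (log2 difference -0.57, SE 0.06, limma adjusted p 9.06e-05). COX5A of complex IV held 146, 134 and 132 against 93.8, 71.4 and 94.7 FPKM (log2 difference -0.67, SE 0.10, limma adjusted p 0.000694), and NDUFS7 and NDUFA8 of complex I differed by -0.70 and -0.57 (limma adjusted p 0.00187 and 0.000675). MRPL12 of the large ribosomal subunit measured 50.6, 45.7 and 46.03 against 28.7, 27.7 and 24.6 FPKM (log2 difference -0.79, SE 0.08, limma adjusted p 9.46e-05), and MRPL15, MRPL37 and MRPS2 differed by -0.71, -0.67 and -0.53. The siRNA groups were separate in each of these 8 genes, with the control mean between theirs. Over the respiratory chain list the library medians were 0.20, 0.13 and 0.11 with siMENA, 0.031, 0.011 and 0.026 in control and -0.12, -0.26 and -0.079 with siMENA11a. Over the ribosome list they were 0.24, 0.14 and 0.087, 0.020, 0.025 and 0.019 and -0.14, -0.20 and -0.11. Control thus sat between the siRNA groups in both lists, and the siMENA libraries lay above it. The lower counts were 23 and 20 with median-ratio scaling.

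EFTUD2 works in the U5 particle of the spliceosome, and most of its listed partners were lower as well. In the U5 tri-snRNP list 14 of 21 genes (66.7%), with EFTUD2 itself counted, were lower with siMENA11a and none was higher, at a median of -0.31. After EFTUD2 came members of the Sm ring: SNRPF (-0.53, limma adjusted p 0.00486) and SNRPB, with 206, 199 and 188 FPKM against 137, 142 and 140.4 FPKM (log2 difference -0.50, SE 0.08, limma adjusted p 0.00131). PRPF4 of the U4/U6 particle measured 33.5, 32.8 and 28.5 against 21.3, 23.02 and 21.3 FPKM (log2 difference -0.51, SE 0.07, limma adjusted p 0.000419). The partners' differences were about a log2 unit smaller than that of EFTUD2, but the siRNA groups were apart in all of them. The direct U5 partners PRPF8 (-0.16, limma adjusted p 0.37) and SNRNP200 (-0.15, 0.0966), named after their values were seen, did not pass.

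Many replication genes and some division genes were lower with siMENA11a, and how many passed varied with the library left out. Of the G1/S and DNA replication genes, 23 of 48 (47.9%) were lower and 2 higher, at a median of -0.28, and 14 were lower without siMENA replicate 2 and 15 without siMENA11a replicate 1. UNG, which removes uracil from DNA, measured 52.5, 50.9 and 47.1 FPKM with siMENA and 24.2, 25.1 and 26.2 FPKM with siMENA11a (log2 difference -0.97, SE 0.06, limma adjusted p 9.5e-06). The DNA polymerase subunits POLA2 (-0.68, limma adjusted p 0.000302) and POLE2 (-0.60, 0.00107) and the clamp loader RFC3 (-0.55, 0.00468) were lower, without overlap. Of the G2/M and mitosis genes, 14 of 38 (36.8%) were lower and 1 higher, at a median of -0.28. The number lower was 9 without siMENA replicate 2, 8 without siMENA11a replicate 1, 9 without siMENA11a replicate 3 and 25 without siMENA11a replicate 2. The checkpoint protein MAD2L1 measured 49.6, 54.3 and 40.7 against 26.1, 29.7 and 26.5 FPKM (log2 difference -0.78, SE 0.13, limma adjusted p 0.00127), and CDC20, which switches on the anaphase-promoting complex, 61.7, 65.2 and 54.7 against 34.9, 43.7 and 30.6 FPKM (log2 difference -0.73, SE 0.13, limma adjusted p 0.00209). The kinesin KIF2C (-0.61, 0.00253) and the kinase AURKB (-0.57, 0.0068) were lower too. For these 4 mitotic genes replicate 2 was the highest library of its group in both siRNA groups, and over the G2/M list the medians of replicate 2 were 0.35 in control, 0.17 with siMENA and -0.007 with siMENA11a, each the highest of its group. The medians of the other siMENA libraries were 0.050 and -0.077, so siMENA replicate 3 lay below siMENA11a replicate 2 and the groups overlapped in this summary. What the replicate 2 libraries share was not tested.

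**Figure D4:**
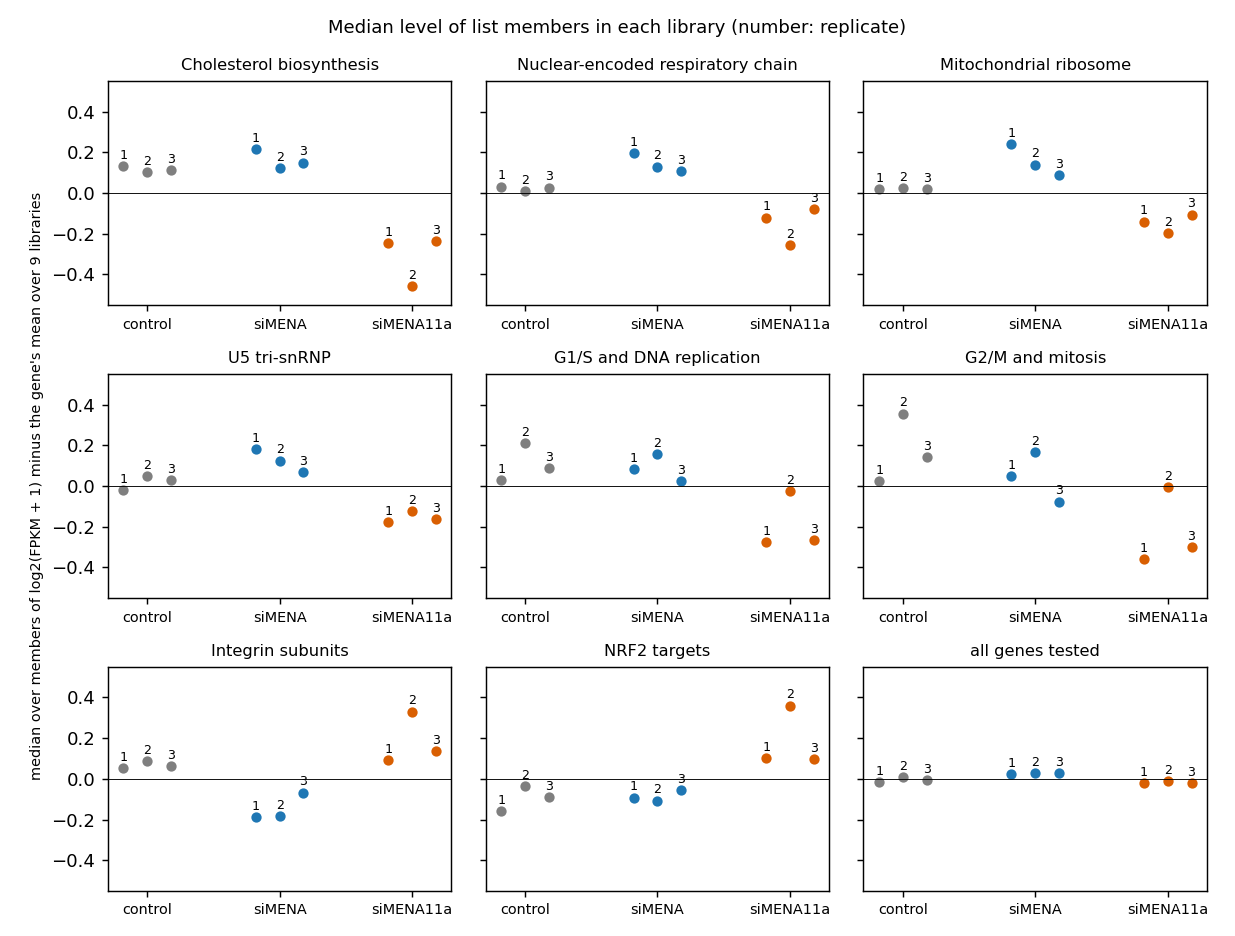
Median over the members of 8 gene lists, and over all genes tested, of log2(FPKM + 1) minus the gene's own mean over the 9 libraries (vertical axis), for each library by group, with the replicate number above each point. In the cholesterol, respiratory chain, mitochondrial ribosome and U5 lists the 3 siMENA11a points lie below all others, in the G2/M list replicate 2 is the highest point of each group, and all genes together stay near 0.

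Among redox and sugar metabolism genes, more were higher with siMENA11a than lower. Of the NRF2 targets, which supply glutathione and NADPH, 11 of 22 (50%) were higher with siMENA11a and 2 lower, at a median of 0.27. After SLC7A11, PGD of the pentose phosphate pathway measured 48.7, 47.6 and 50.8 FPKM with siMENA and 78.5, 86.4 and 73.9 FPKM with siMENA11a (log2 difference 0.69, SE 0.07, limma adjusted p 7.24e-05). GCLC, the catalytic subunit that starts glutathione synthesis, measured 6.97, 6.999 and 7.002 against 11.003, 11.8 and 10.5 FPKM (log2 difference 0.60, SE 0.08, limma adjusted p 0.00029). HMOX1, heme oxygenase 1, went the other way, at 46.1, 36.9 and 35.6 against 23.1, 22.6 and 20.98 FPKM (log2 difference -0.80, SE 0.10, limma adjusted p 0.000284), with 24.2 ± 2.3 FPKM in control. The groups were separate in all 3 genes. Of the aldo-keto reductase and aldehyde dehydrogenase genes 8 of 20 tested members (40%) were higher with siMENA11a and 5 (25%) lower, at a median of 0.41 (10 and 4 under both other scalings). The list also holds DHRS2, which belongs to neither family and is counted among the lower members. ALDH9A1 held 28.05, 28.98 and 28.05 against 48.01, 51.96 and 48.5 FPKM (log2 difference 0.78, SE 0.05, limma adjusted p 1.12e-05) and ALDH3B2 5.58, 5.99 and 6.04 against 14.02, 12.4 and 11.9 FPKM (log2 difference 1.00, SE 0.10, limma adjusted p 8.07e-05), both without overlap. Of the metallothionein and zinc genes 3 of 10 tested members (30%) were higher with siMENA11a and 2 (20%) lower: the zinc-sensing factor MTF1 (0.55, limma adjusted p 0.00058) was higher, as was its target MT1X (0.61, 0.000776), whose value is uncertain for the same reason as MT1E, and the zinc importer SLC39A10 was lower (-0.63, 9.04e-05).

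Glycolysis and hypoxia genes were higher in 11 of 28 cases (39.3%) and lower in 1, at a median of 0.12. PGAM1, a phosphoglycerate mutase, measured 226, 245 and 238 FPKM with siMENA and 423, 464 and 437 FPKM with siMENA11a (log2 difference 0.90, SE 0.07, limma adjusted p 2.65e-05), beside 455 ± 33 FPKM in control. The glucose carrier SLC2A3 measured 21.9, 16.6 and 23.6 against 46.7, 33.5 and 47.4 FPKM (log2 difference 1.00, SE 0.20, limma adjusted p 0.00375), the oxygen-sensing hydroxylase EGLN3 14.9, 15.99 and 16.9 against 29.6, 24.6 and 33.3 FPKM (log2 difference 0.83, SE 0.13, limma adjusted p 0.00092) and the mitophagy receptor BNIP3L 31.9, 31.7 and 34.4 against 58.9, 53.1 and 62.2 FPKM (log2 difference 0.81, SE 0.06, limma adjusted p 2.55e-05). In all 4 the lowest siMENA11a library was above the highest siMENA library. The core enzymes GAPDH (-0.05, limma adjusted p 0.825), PGK1 (-0.01, 0.9) and ALDOA (-0.06, 0.691), which were named after their values were seen, did not pass.

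Of the ATF4 and integrated stress response genes 7 of 26 tested members (26.9%) were higher with siMENA11a and 2 (7.69%) lower, with 4 higher without siMENA replicate 3 or siMENA11a replicate 2. The lower genes were 4 without siMENA11a replicate 2 and 0 without any one of the other siRNA libraries. After SLC7A11, the factors DDIT3 (0.53, limma adjusted p 0.00309) and ATF4 (0.31, 0.00139) and the stress sensor SESN2 (0.34, 0.0393) were higher. SESN2 lost its call without siMENA replicate 1, siMENA replicate 2, siMENA replicate 3 or siMENA11a replicate 2, and with no filter on low values or in a fit of the 6 siRNA libraries alone (limma adjusted p 0.0543 to 0.0988, and 0.0168 to 0.0988 over all alternatives). Of the ER chaperones and unfolded protein response genes 2 of 23 tested members (8.7%) were higher with siMENA11a and 7 (30.4%) lower. The lectin chaperone pair split: CANX measured 102, 101 and 101 FPKM with siMENA and 149, 145 and 148 FPKM with siMENA11a (log2 difference 0.53, SE 0.05, limma adjusted p 3.74e-05), and CALR 347, 330.1 and 308 against 238, 214 and 226 FPKM (log2 difference -0.54, SE 0.07, limma adjusted p 0.000249). The siRNA groups were apart in both genes. Control means lay above those of both groups, at 155 ± 4.1 FPKM for CANX and 350 ± 7.1 FPKM for CALR. CANX was thus lowest with siMENA and CALR lowest with siMENA11a. SDF2L1 (-0.52, limma adjusted p 0.0126) and CRELD2 (-0.45, 0.00272), both targets of the unfolded protein response, were lower. SDF2L1 lost its call without siMENA replicate 1 (limma adjusted p 0.0504, and 0.00805 to 0.0504 over all alternatives). Among proteasome subunits 3 of 31 tested members (9.68%) were higher with siMENA11a and 6 (19.4%) lower, shares near the 14.4% and 22.2% of all genes, and 2 were lower without siMENA replicate 2. PSMB2 differed most, at 16.4, 16.8 and 16.4 against 29.2, 33.1 and 28.3 FPKM (log2 difference 0.83, SE 0.08, limma adjusted p 5.63e-05), without overlap, while PSMB3 (-0.36), PSMA3 (-0.33) and PSMD3 (-0.24) were lower. PSMD3 lost its call without siMENA replicate 2 (limma adjusted p 0.0573, and 0.00654 to 0.0573 over all alternatives).

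Of the lysosomal hydrolases 2 of 30 tested members (6.67%) were higher with siMENA11a and 8 (26.7%) lower, with 5 higher without siMENA11a replicate 2, and the list's median of -0.016 turned positive under both other scalings (0.027 and 0.029). The list also counts SUMF1, the activator of sulfatases, which is not itself a lysosomal hydrolase. The protease CTSB measured 61.9, 74.7 and 62.7 FPKM with siMENA and 28.8, 23.7 and 24.1 FPKM with siMENA11a (log2 difference -1.34, SE 0.09, limma adjusted p 1.46e-05), and SUMF1 32.1, 30.6 and 32.4 against 15.8, 11.1 and 17.2 FPKM (log2 difference -1.08, SE 0.13, limma adjusted p 0.000262). Control was at 62.4 ± 4.2 and 33.5 ± 3.2 FPKM, and the siMENA11a libraries were the low ones in both genes. Of the BCL2 family and apoptosis genes 6 of 21 tested members (28.6%) were higher with siMENA11a and 7 (33.3%) lower. The lower genes were 4 without siMENA replicate 1 or siMENA11a replicate 1, with either other scaling, or in a fit of the siRNA libraries alone. XIAP, a direct caspase inhibitor, measured 8.17, 7.96 and 8.53 FPKM with siMENA and 18.4, 17.1 and 19.2 FPKM with siMENA11a (log2 difference 1.06, SE 0.06, limma adjusted p 3.89e-06), with 15.7 ± 0.23 FPKM in control. The death-promoting BMF was lower (log2 difference -0.66, limma adjusted p 0.000127). Of the protein kinase A genes 3 of 12 tested members (25%) were higher with siMENA11a and 1 (8.33%) lower. The regulatory subunits PRKAR2A, at 10.1, 11.5 and 12.3 against 21.2, 23.4 and 22.3 FPKM (log2 difference 0.92, SE 0.08, limma adjusted p 3.27e-05), and PRKAR1A, at 111, 113 and 115 against 185, 182 and 175 FPKM (log2 difference 0.67, SE 0.05, limma adjusted p 1.58e-05), were higher without overlap. The anchoring proteins AKAP1 (-0.27, limma adjusted p 0.00844) and AKAP9 (0.20, 0.0261) differed by small steps in opposite directions. AKAP9 lost its call without siMENA replicate 1, siMENA replicate 2 or siMENA11a replicate 3, and in a fit of the 6 siRNA libraries alone (limma adjusted p 0.0523 to 0.0809, and 0.0103 to 0.0809 over all alternatives).

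In the IL6 and STAT3 list, which holds the cytokine, its receptors and STAT3 targets, 8 of 18 members (44.4%) were higher with siMENA11a and 3 lower, at a median of 0.24. Under both other scalings, and without siMENA replicate 1, siMENA replicate 3 or siMENA11a replicate 1, 1 member was lower. The shared receptor chain IL6ST measured 23.9, 27.8 and 26.2 FPKM with siMENA and 35.1, 42.2 and 38.8 FPKM with siMENA11a (log2 difference 0.56, SE 0.09, limma adjusted p 0.000998). SOCS3, the feedback inhibitor that STAT3 induces, measured 6.22, 7.95 and 6.93 against 13.9, 16.3 and 15.8 FPKM (log2 difference 1.02, SE 0.11, limma adjusted p 8.75e-05), and CEBPD, a STAT3 target, 73.4, 72.3 and 70.9 against 112, 108 and 113 FPKM (log2 difference 0.61, SE 0.06, limma adjusted p 6.47e-05). No library of one siRNA group reached the other in these 3 genes. IL6R (0.66, limma adjusted p 0.0185) and the cytokine IL6 itself (0.41, 0.0173) were higher by smaller margins over their spread. IL6R lost its call without siMENA replicate 1 or siMENA11a replicate 2 (limma adjusted p 0.0555 to 0.0715, and 0.000984 to 0.0715 over all alternatives). IL6 lost its call without siMENA replicate 3 (limma adjusted p 0.0586, and 0.00955 to 0.0586 over all alternatives).

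In the lymphotoxin receptor and non-canonical NF-kB list 3 of 12 tested members (25%) were higher with siMENA11a and 1 (8.33%) lower. The receptor LTBR measured 49.1, 52.8 and 54.2 FPKM with siMENA and 41.1, 41.7 and 37.7 FPKM with siMENA11a (log2 difference -0.37, SE 0.06, limma adjusted p 0.000986), with 52.7 ± 1.3 FPKM in control. BIRC2, a paralog of BIRC3 that also ubiquitinates the kinase of this pathway, was higher (0.33, limma adjusted p 0.00123), and so was the receptor TNFRSF12A (0.23, 0.0293). The siRNA groups did not overlap in any of these. TNFRSF12A lost its call without siMENA replicate 2, siMENA replicate 3, siMENA11a replicate 1, siMENA11a replicate 2 or siMENA11a replicate 3 (limma adjusted p 0.0548 to 0.0974, and 0.00804 to 0.0974 over all alternatives). The pathway's transcription factor genes NFKB2 (-0.17, 0.125) and RELB (0.03, 0.881), named after their values were seen, did not pass. Of the canonical NF-kB genes, 3 of 20 (15%, near the 14.4% of all genes) were higher and none lower, or 2 lower without siMENA11a replicate 2: IL8 (0.61, limma adjusted p 0.00695), IL6 and the inhibitor NFKBIA (0.17, 0.0179). NFKBIA lost its call without siMENA replicate 1 or siMENA11a replicate 1 (limma adjusted p 0.0653 to 0.0654, and 0.00534 to 0.0654 over all alternatives). Of 9 chemokine genes tested, 2 (22.2%) were higher and none lower, beside 14.4% and 22.2% of all genes. CCL28, a mucosal chemokine, measured 22.7, 18.02 and 20.8 against 35.3, 28.5 and 34.3 FPKM (log2 difference 0.65, SE 0.14, limma adjusted p 0.00537), without overlap, and IL8 was low throughout, at 0.322, 0.693 and 0.387 against 1.16, 1.57 and 0.993 FPKM. CCL5, chosen after its value was seen as the chemokine with the highest level, had 118, 204 and 105 FPKM with siMENA and 137, 197 and 117 FPKM with siMENA11a, where control had 69.1 ± 13.03 FPKM. The siRNA groups overlapped in CCL5, and the gene did not pass (log2 difference 0.11, SE 0.25, limma adjusted p 0.772, 95% interval -0.46 to 0.67).

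Of the RNA sensing and interferon signaling genes 6 of 22 tested members (27.3%) were higher with siMENA11a and 1 (4.55%) lower, with 3 lower without siMENA11a replicate 2. The receptor chain IFNGR1 led, with 14.6, 20.3 and 17.3 FPKM with siMENA and 34.5, 38.7 and 38.7 FPKM with siMENA11a (log2 difference 1.07, SE 0.11, limma adjusted p 0.000107). The adaptor of RNA sensors MAVS (0.54, limma adjusted p 0.00013) and the receptor chain IFNAR1 (0.49, 0.0054) were higher. These 3 genes had separate groups. Among interferon-induced effectors 7 of 39 tested members (17.9%) were higher with siMENA11a and 4 (10.3%) lower. The higher share was near the 14.4% of all genes and the lower share under their 22.2%, and the lower genes were 9 without siMENA11a replicate 2 and 2 without siMENA replicate 1, siMENA replicate 2 or siMENA11a replicate 1. The control mean was below both siRNA groups in 9 of the 11 called genes. PARP9 measured 20.3, 21.5 and 17.995 against 33.8, 32.1 and 32.4 FPKM (log2 difference 0.69, SE 0.07, limma adjusted p 7.49e-05). Its mean was lowest in control, at 17.3 ± 0.87 FPKM, where the libraries overlapped with those of siMENA. IFI6 (0.72, limma adjusted p 0.000276) and the GTPase GBP2 (0.68, 0.000769) were higher too. OAS2, an RNA-activated synthetase, was lower, at 7.87, 11.4 and 7.31 against 4.67, 6.20 and 4.60 FPKM (log2 difference -0.67, SE 0.16, limma adjusted p 0.00879). Its control mean of 4.32 ± 0.61 FPKM lay below both siRNA means, but control and siMENA11a libraries overlapped. The siRNA groups were apart in each of these effectors.

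Of the MHC class I presentation genes 4 of 15 tested members (26.7%) were higher with siMENA11a and 2 (13.3%) lower, with 2 higher without siMENA replicate 1. B2M, the light chain of class I molecules, measured 1051, 1115 and 994 FPKM with siMENA and 1827, 1565 and 1949 FPKM with siMENA11a, against 1102 ± 71 FPKM in control (log2 difference 0.75, SE 0.10, limma adjusted p 0.000493). The siMENA11a libraries lay above all others. The peptide trimmer ERAP2 was lower (-0.54, limma adjusted p 0.000833). Levels of single HLA genes are uncertain because the genes of each class share sequence. Of 6 class II genes tested, 3 (50%) were higher and 1 (16.7%) lower, beside 14.4% and 22.2% of all genes. HLA-DRA (0.49, limma adjusted p 0.018), HLA-DQB1 (0.44, 0.0465) and the protease CTSS (0.39, 0.0052) were higher and the regulator RFX5 was lower (-0.28, 0.0127). The higher genes were 1 without siMENA replicate 3 or siMENA11a replicate 1. HLA-DRA lost its call without siMENA replicate 3 or siMENA11a replicate 1 (limma adjusted p 0.0634 to 0.0658, and 0.00451 to 0.0658 over all alternatives). HLA-DQB1 lost its call without siMENA replicate 1, siMENA replicate 3, siMENA11a replicate 1, siMENA11a replicate 2 or siMENA11a replicate 3, and with no filter on low values, with missing values read as 0 or with limma run without its trend (limma adjusted p 0.0541 to 0.138, and 0.0151 to 0.138 over all alternatives). RFX5 lost its call without siMENA replicate 2 (limma adjusted p 0.0519, and 0.00547 to 0.0519 over all alternatives). Among immune checkpoint ligands 4 of 13 tested members (30.8%) were higher with siMENA11a and 2 (15.4%) lower, with 2 higher without siMENA replicate 1, siMENA replicate 2, siMENA11a replicate 1 or siMENA11a replicate 3. PVRL2, a ligand of TIGIT and CD226, measured 34.6, 37.3 and 37.1 against 20.6, 24.2 and 21.7 FPKM (log2 difference -0.69, SE 0.07, limma adjusted p 9.61e-05), without overlap. CD274, which encodes PD-L1, was low, at 0.896, 1.47 and 0.721 against 1.87, 2.21 and 1.87 FPKM (log2 difference 0.57, SE 0.13, limma adjusted p 0.00631), and VTCN1, or B7-H4, overlapped between the groups (log2 difference 0.58, SE 0.19, limma adjusted p 0.0327). VTCN1 lost its call without siMENA replicate 1, siMENA replicate 2, siMENA11a replicate 1 or siMENA11a replicate 3 (limma adjusted p 0.0952 to 0.109, and 0.00154 to 0.109 over all alternatives).

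In growth factor signaling, 1 of 11 EGFR family genes and ligands (9.09%) was higher and none lower, beside 14.4% and 22.2% of all genes. ERRFI1, a feedback inhibitor of EGFR, measured 76.7, 76.7 and 82.05 FPKM with siMENA and 96.7, 90.1 and 98.7 FPKM with siMENA11a (log2 difference 0.27, SE 0.06, limma adjusted p 0.00444), without overlap, and there were 3 higher genes under median-ratio scaling and 2 under quantile normalization. EGFR itself, named after its value was seen, had 30.2, 33.2 and 36.5 against 37.8, 42.3 and 35.7 FPKM (log2 difference 0.21, SE 0.08, limma adjusted p 0.0643). Of the MAPK feedback and ETS genes 2 of 21 tested members (9.52%) were higher with siMENA11a and 7 (33.3%) lower. MYC, the growth-promoting factor, measured 36.6, 37.2 and 36.7 FPKM with siMENA, 25.5, 28.1 and 23.4 FPKM with siMENA11a and 24.1 ± 1.4 FPKM in control (log2 difference -0.51, SE 0.07, limma adjusted p 0.000427). It was thus high in the siMENA libraries alone. The phosphatase DUSP7 (-0.51, limma adjusted p 0.00101), the feedback inhibitor SPRY1 (-0.49, 0.00239) and the ETS factor ETV5 (-0.59, 0.0316) were lower. ETV5 lost its call without siMENA replicate 2, siMENA replicate 3, siMENA11a replicate 1 or siMENA11a replicate 3 (limma adjusted p 0.0634 to 0.108, and 0.00143 to 0.108 over all alternatives).

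**Figure D5:**
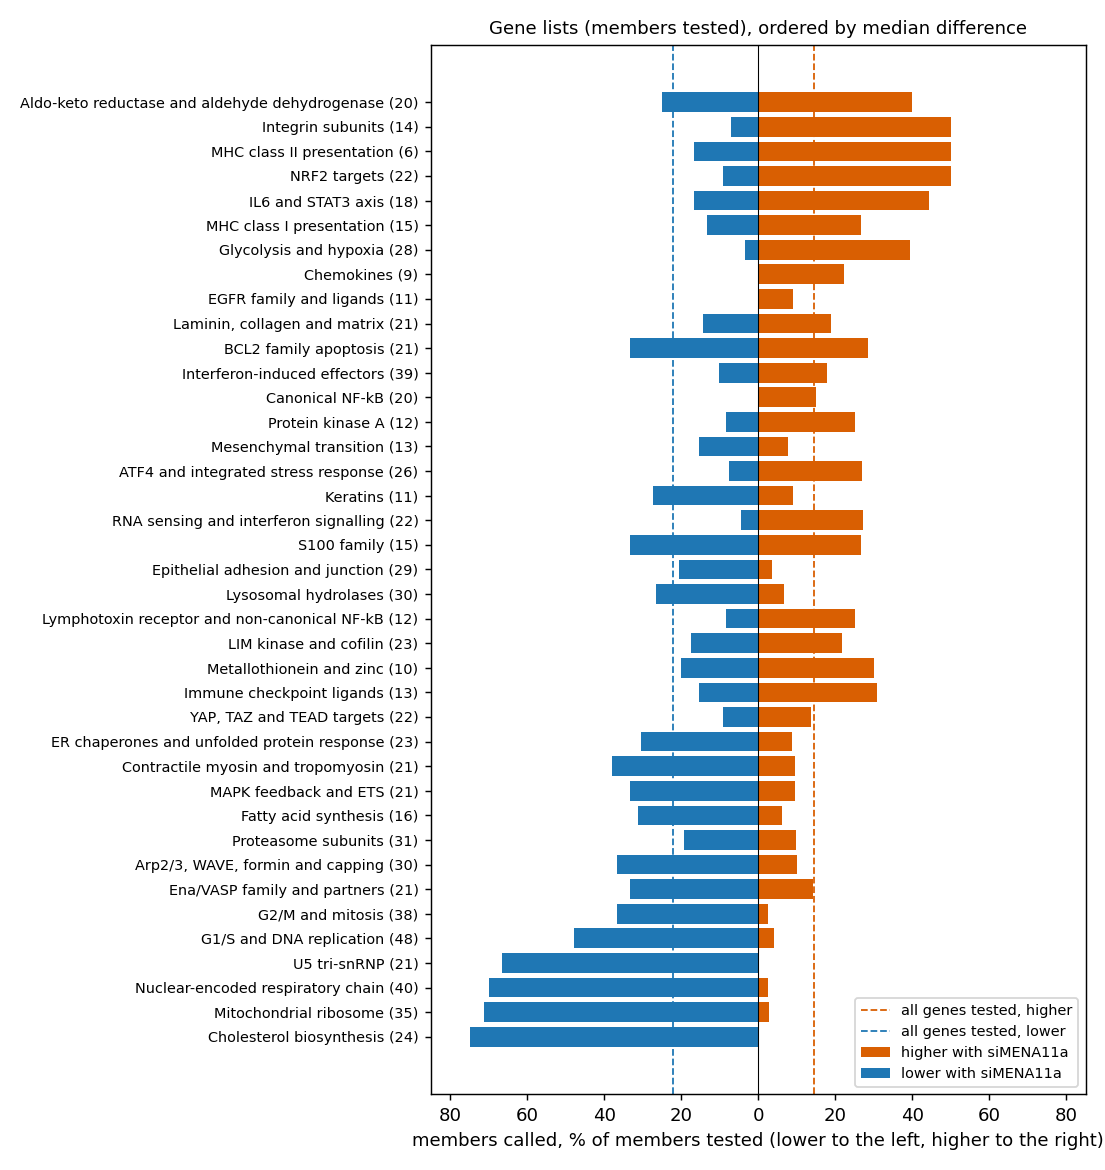
Share of tested members called higher (orange, to the right) and lower (blue, to the left) with siMENA11a against siMENA, in % of members, for the 39 gene lists ordered by median difference, with the number tested in brackets. Dashed lines give the shares over all genes tested, 14.4% and 22.2%. The cholesterol list reaches 75.0% lower, and the integrin and NRF2 lists reach 50% higher.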

How the data were processed

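Total RNA of H1650 cells was sequenced in 3 control, 3 siMENA and 3 siMENA11a libraries, grouped by the labels, which call them biological replicates. P-values measure the spread between these libraries, which may be technical. The authors deposited 1 table of FPKM values for 16630 genes. The submitters' processing notes name hg19, and no aligner, counting tool or annotation is named in the sources used. The table holds no counts, and 344 values lie above 0 but under 1e-06 FPKM, so depth is unknown and no count test was run. Of the whole-number values, 11524 had lost their decimal point, stood 198-fold or more above the other values of their gene where it had any, and were divided by 1000. In 237 genes all values above 0 were whole numbers, so none was left to check the division. Genes lacking a value in any library, 1286 in all, were dropped.

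Values were taken as log2(FPKM + 1) and fitted with limma 3.58.1 in R 4.3.3 over all 9 libraries, by group, with a mean-variance trend and 6 residual degrees of freedom. The contrast was siMENA11a minus siMENA. The 13273 genes that averaged at least 0.5 FPKM were tested, and Benjamini-Hochberg adjustment ran over all of them. Adjusted p under 0.05 counted as a call. Named genes are ENAH, the 15 largest rises and 15 largest falls among calls with a mean of at least 1 FPKM and siRNA groups that do not overlap, passing over small RNA genes and clone-based names, and up to 4 called members with the largest change from each of 39 gene lists. A few genes under this rule are not reported here. The members, lists and tests were chosen with earlier results of these data known. Alternatives were another pseudocount, other filters, other scalings, a fit of the siRNA libraries alone, no trend, another treatment of missing and repaired values, a replicate block and leaving out each siRNA library. The script was tested on simulated data. Gene symbols were joined to GENCODE 29 on GRCh38 for 3′ untranslated regions.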

Additional observations from a re-analysis of the deposited data

How the results depend on the processing

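The count of 4857 calls (1916 higher and 2941 lower with siMENA11a) was 2716 (1078 and 1638) when genes with a repaired value were left out, which leaves 8461 genes to test. In that setting the lower members were 9 of 12 in the cholesterol list, 3 of 6 in the respiratory chain, 9 of 15 in the mitochondrial ribosome, 4 of 9 in the U5, 12 of 25 in the G1/S and 6 of 14 in the G2/M list, and the higher members were 2 of 5 integrins, 6 of 12 NRF2 targets, 4 of 12 glycolysis and 2 of 9 IL6 genes, with 0 lower of 4 contractile and of 5 proteasome genes. Leaving out 1 siRNA library gave 3624 to 4820 calls, 1453 to 1856 of them higher and 2171 to 2964 lower, and the ENAH difference ranged from 0.77 to 0.94. The replicate numbers are shared between the groups. Deviations of siRNA libraries with the same number correlated at 0.0863, 0.309 and 0.0203, and those with different numbers at -0.24 to 0.205. The best match of siMENA replicate 1 was siMENA11a replicate 3 (0.205). The labels do not say that a number marks a batch, so the main fit did not pair the libraries. Whether libraries of a number share a batch was not tested. With a replicate block there were 5648 calls (2255 higher and 3393 lower), ENAH kept its 0.87, the G2/M list had 25 lower members, the interferon-induced list 11 higher and 11 lower, the matrix list 7 higher and 5 lower, the junction list 5 higher, the Ena/VASP list 5 higher and the MHC class I list 4 lower, and the call of every named gene held. Over the other planned settings the total was 4318 to 4860. Of 2481 combinations of a setting and a gene other than ENAH that the naming rule covers, 2409 kept the call, 72 in 23 genes lost it and 0 reversed. The table gives no depth, so no limit from it can be put on low values.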
